A study of Homo sapiens with 4 samples.

Results

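The alpha- and beta-globin loci were followed here across 4 maps of H3K9me2, a histone mark (lysine 9 of histone H3 carrying a pair of methyl groups), in K562 cells. The beta-globin locus was taken as the 100 kb of chromosome 11 from 5230001 to 5330000, and the alpha-globin locus as the 200 kb of chromosome 16 from 100001 to 300000 (hg19, counted from 1). Every listed peak that overlapped these stretches was a member. There were 140 among the 1000000 peaks of the 4 lists, 60 over the beta-globin and 80 over the alpha-globin locus. Each locus was also read in windows of 10 kb, numbered from its low-coordinate end, 10 on chromosome 11 and 20 on chromosome 16. The 8 genes of interest are HBB, HBD, HBG1, HBG2 and HBE1 on chromosome 11, and HBZ, HBA2 and HBA1 on chromosome 16. They were placed by window from textbook hg19 positions, because no hg19 annotation was used here.

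Hemoglobin is built from alpha-like and beta-like globin chains, whose genes lie in clusters in the order in which development uses them. HBE1 and HBZ serve the embryo, HBG1 and HBG2 the fetus, and HBB and HBD the adult, while HBA1 and HBA2 serve fetus and adult. The beta-like genes depend on the locus control region, an array of enhancers next to HBE1, and the alpha-like genes on enhancers inside the neighbouring gene NPRL3, of which HS-40 is the main one. H3K9me2 is written mostly by EHMT1 and EHMT2, marks broad silent stretches, and is known to bear on globin switching, since inhibiting these enzymes raises gamma-globin in cultured adult erythroid cells. K562, an established human myeloid leukemia line, is known for transcribing the embryonic, fetal and alpha-globin genes and little or no HBB.

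CUT&RUN was used, a method that sequences DNA released by a nuclease held at the mark by an antibody. The control libraries (replicates 1 and 2) came from K562 cells given a CRISPR guide against HPRT, and the knockout libraries (replicates 1 and 2) from K562 cells in which the guide targeted CUX1, which encodes a transcription factor with a homeodomain. The sources used here do not say whether the cells were pools or clones, or whether replicates were separate cultures. A p-value therefore weighs a difference only against the spread of these libraries, and that spread may be technical. The peak names of both knockout libraries carry the tag "cux1kd", and those of control replicate 1 a tag beginning with "sub", neither of which the labels explain. Peak lists hold no RNA measure, so neither globin transcription nor the loss of CUX1 was checked here.

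Each library was a list of 250000 broad peaks, and read depth was not given. Peaks covered 22.8% and 22.4% of chromosomes 1 to 22 and X in the controls, 13.96% in knockout replicate 1 and 19.3% in knockout replicate 2. Knockout replicate 1 stood apart, with a median peak width of 1324 bp against 1900 to 2335 bp in the other 3 libraries, and its list ended at a −log10 p of 1.49 against 1.25 to 1.35. Values were therefore also read with 1 common limit, a −log10 p of at least 1.49, which leaves the list of knockout replicate 1 whole. No peak in either locus reached a q of 0.05, and 0.0798% of all listed peaks did. The smallest q was 0.168, in control replicate 2 over the alpha-globin locus, and the coverage described below was, like nearly all of the lists, weak by the caller's own measure.

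Of the 8 genes, 1 had a promoter sequence in the RefSeq table used, HBD, the minor adult beta-like gene. It is shown for the GATA motif of an erythroid promoter (GRCh38.p14, chr11:5234434-5234733, minus strand, a build whose positions differ from those of the peaks). It runs from 250 bases before the transcript start to 50 bases after it, and capitals mark TTATC, the reverse complement of GATAA.
HBD promoter: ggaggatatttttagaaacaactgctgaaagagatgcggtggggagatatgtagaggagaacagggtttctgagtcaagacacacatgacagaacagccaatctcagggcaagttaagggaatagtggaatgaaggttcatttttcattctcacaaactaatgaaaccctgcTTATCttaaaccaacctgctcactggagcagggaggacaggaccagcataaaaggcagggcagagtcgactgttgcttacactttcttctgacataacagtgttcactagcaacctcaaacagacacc
GATAA on either strand occurred in 22.7% of the 35116 promoters of this length. CCAAT, the letters of a common promoter element, lay further upstream in the HBD promoter and occurred in 34.6% of them on either strand. CACCC and TATAAA were not found in this window on either strand, and occurred in 59.9% and 11.5% of promoters. The match is a description of letters only.

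The beta-globin locus was densely covered in both controls and in 1 of the knockouts. Peaks covered 49.3% and 44.2% of it in control replicates 1 and 2, 13.6% in knockout replicate 1 and 39.4% in knockout replicate 2. Both knockouts lay below both controls, as they did in 43.2% of the 27539 windows of 100 kb tested across the genome (the reverse order held in 5.12%, and the knockout mean was lower in 79.9%). The control mean was 46.8% ± 3.58 and the knockout mean 26.5% ± 18.3 (SD, n = 2 each), with a difference of -20.3 points (SE 9.37). The difference did not pass the test, limma over all 100-kb windows with Benjamini-Hochberg adjustment (adjusted p = 0.296, unadjusted p = 0.0304). The SE came from that fit, which shares its estimate of spread over windows of like mean coverage, and not from the SDs given here. On simulated data this fit missed nearly all changes of about that size, so failing it says little. The same fit called 0.0726% of windows lower and 0% higher, and 14.9% had an unadjusted p under 0.05. A two-sided exact permutation test gave p = 0.333, its lower limit with 2 libraries a group.

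The size of the difference rested on knockout replicate 1. Without it the difference was -7.36 points (limma adjusted p = 0.866), and without knockout replicate 2 it was -33.2 points (limma adjusted p = 0.0174). The latter fit set knockout replicate 1 alone against both controls, took its spread from the controls only, and called 5.43% of all windows lower and 0.0581% higher. In control replicates 1 and 2 and in knockout replicate 2 the locus was covered more densely than 97.9%, 94.3% and 94.6% of all 100-kb windows of the same library. In knockout replicate 1 it was covered more densely than 46.7% of them. Relative to the coverage of the whole library, the locus was 2.16 and 1.98 times as dense in the controls, 0.972 times in knockout replicate 1 and 2.04 times in knockout replicate 2.

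**Figure D1:**
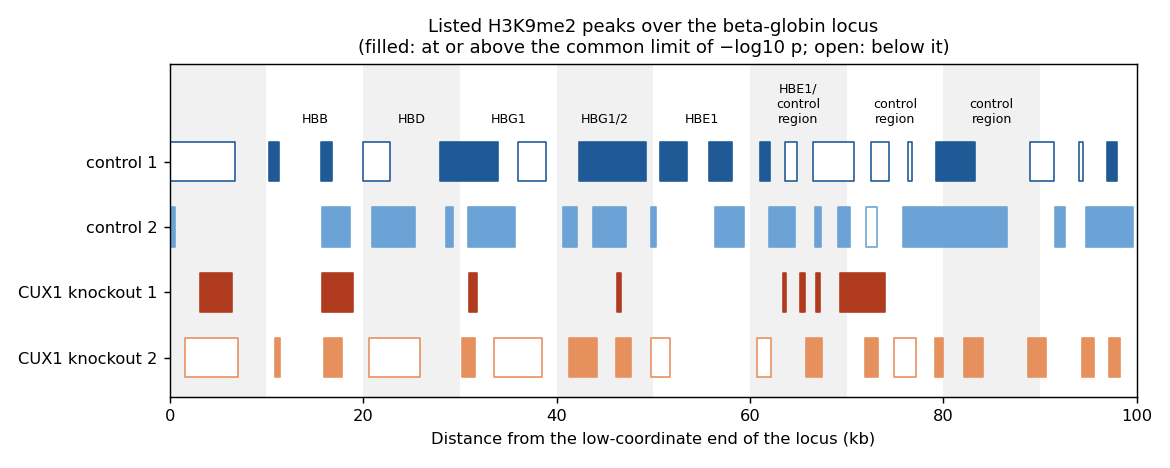
Listed H3K9me2 peaks (bars) over the beta-globin locus in each of the 4 libraries, by distance in kb from the low-coordinate end; shading alternates by 10-kb window, gene names stand over the windows that hold them, and open bars fall below the common limit of −log10 p. Knockout replicate 1 has 8 peaks against 16 to 18 in the other libraries, and none over windows 3, 6, 9 and 10.

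In both controls and in knockout replicate 2 the locus was denser than its flanks. The 500 kb on each side, where olfactory receptor genes such as OR51V1 and OR51B4 border the cluster in the RefSeq gene order, were covered to 36.0% and 30.2% in control replicates 1 and 2 and to 19.8% and 32.0% in knockout replicates 1 and 2. The locus exceeded its flanks by 13.3 and 13.9995 points in the controls. In the knockouts the locus minus its flanks was -6.21 points in replicate 1 and 7.42 points in replicate 2. The locus's excess over its flanks was thus lower in both knockouts than in both controls, with a difference of -13.1 points between the means (exact permutation p = 0.333, the smallest possible). For coverage alone that order held in 43.2% of 100-kb windows of the genome. How often it holds for windows against their flanks was not computed for either locus, so how unusual the order is cannot be judged. On the low-coordinate side the excess was 9.72 and 9.71 points in the control pair, against -6.61 and 10.1 in the knockout pair, so that the groups overlapped there. On the high-coordinate side it was 16.98 and 18.3 points in the control pair, against -5.81 and 4.69 in the knockout pair, which did not overlap. With a −log10 p of at least 2 the difference from both flanks together turned to 1.504 points, with overlapping groups.

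With the common limit of −log10 p, the knockout mean was lower at the beta-globin locus and higher in most windows of the genome. Peaks then covered 26.2% and 43.1% of it in the control pair, against 13.6% and 17.996% in the knockout pair, and both knockouts again lay below both controls. The background for that order was 6.38% of 100-kb windows, and 25.5% of windows had a lower knockout mean. The difference was -18.9 points, while the median window differed by 3.30 points in the other direction, and 0.0264% of 26488 windows had a lower difference. The share of windows with a lower difference depended on the setting. It was 4.38% with the whole lists, 0.731% with lists cut to equal covered length, 5.08% after quantile normalization and 8.76% with 1 limit of −log10 q. The difference at the common limit of −log10 p did not pass adjustment over all windows (limma adjusted p = 0.493, unadjusted p = 0.0131). At that limit the flanks of 500 kb were covered to 16.4% and 15.03% in the control pair, against 19.8% and 20.8% in the knockout pair. These flanks were thus higher in both knockouts where the locus was lower. Over flanks of 200 kb the groups overlapped, at 13.96% and 17.9% in the control pair, against 17.7% and 17.3% in the knockout pair. Without control replicate 2 the difference at this limit was -10.5 points, and without any of the other libraries it was between -27.4 and -16.7. With 1 common limit of −log10 q (0.0335), control replicate 1 kept 16.5% and the groups overlapped (38.9% in control replicate 2, 12.3% and 37.1% in the knockouts).

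Among the adult genes, the window of HBB was covered to between 21.0% and 31.4% in every library, and that of HBD was empty in 1 of the whole lists. HBB, the adult beta-globin gene, lies in window 2 (5240001 to 5250000), which peaks covered to 21.0% and 29.3% in the control pair, against 31.4% and 23.2% in the knockout pair. The groups overlapped, with a difference of 2.17 points (95% interval by limma -39.8 to 44.2). HBD lies in window 3, which was covered to 48.4% and 52.1% in the controls, 0% in knockout replicate 1 and 52.5% in knockout replicate 2. At the common limit window 3 had 20.3% and 52.1% in the control pair and 0% in both knockouts.

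The windows of the fetal genes were the most densely covered of the locus in control replicate 1, and in window 4 the knockout replicates lay furthest apart. Coverage of a window is not coverage of the gene in it, and from 5268915 to 5270688, across windows 4 and 5, no library had a peak. HBG1 lies across windows 4 and 5 and HBG2 in window 5. Window 4 was covered to 68.0% and 48.6% in the control pair, against 7.93% and 63.6% in the knockout pair. Window 5 was covered to 68.8% and 51.1% in the control pair, against 4.21% and 46.6% in the knockout pair, both knockouts lying below both controls. Over both windows the means were 59.1% ± 13.1 and 30.6% ± 34.7 (control and knockout, SD, n = 2 each), a difference of -28.5 points (exact permutation p = 0.667). At the common limit the same 20 kb were covered to 54.0% and 49.8% in the control pair, against 6.07% and 29.0% in the knockout pair, which did not overlap. That separation hung on a narrow margin. A peak of 4963 bp of knockout replicate 2 in window 4 had a −log10 p of 1.484, just under the limit of 1.486. In that library window 4 fell from 63.6% to 14.01% at the limit. Both knockouts lay below both controls at that limit in 7.64% of 10-kb and 6.38% of 100-kb windows of the genome.

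In the windows of the embryonic gene HBE1 both knockouts lay below both controls, as in 23.6% of 10-kb and 43.2% of 100-kb windows of the genome. From 5289330 to 5290742, across windows 6 and 7, no library had a peak. Windows 6 and 7, which HBE1 spans, were covered to 55.3% and 37.3% in the control pair, against 9.48% and 24.1% in the knockout pair (means 46.3% ± 12.7 and 16.8% ± 10.4, SD, n = 2 each; exact permutation p = 0.333, the smallest possible). Window 6 alone had 52.3% and 32.6% against 0% and 16.8%. At the common limit window 6 kept all of its coverage in the controls and had 0% in both knockouts. The peak of knockout replicate 2 there had a −log10 p of 1.475, just under the limit of 1.486. The peaks of control replicate 2 there had 1.58 and 1.54, just above it.

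Across the locus control region, windows 7 to 9, coverage was 45.9% and 54.5% in the control pair, against 19.7% and 36.0% in the knockout pair (means 50.2% ± 6.09 and 27.8% ± 11.6, SD, n = 2 each; exact permutation p = 0.333, the smallest possible). Both knockouts lay below both controls, an order found in 23.6% of 10-kb and 43.2% of 100-kb windows of the genome. With the common limit the groups overlapped (16.7% and 50.8% in the control pair, against 19.7% and 23.4% in the knockout pair). Window 8 was covered to 36.7% and 55.8% in the control pair, against 40.01% and 44.6% in the knockout pair, a difference of -3.94 points with overlapping groups. Window 9 was covered to 42.7% and 65.7% in the control pair, against 0% and 32.1% in the knockout pair, at -38.1 points the lowest difference of the 10 windows (limma adjusted p = 0.834, unadjusted p = 0.0702). Window 10, at the high end of the locus, had 29.8% and 59.5% against 0% and 28.4%. The largest difference in the other direction was in window 1, at the low end, with 67.1% and 5.77% in the control pair, against 33.1% and 54.8% in the knockout pair.

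In all, both knockouts lay below both controls in 5 of the 10 windows (5, 6, 7, 9 and 10), against 23.6% of the 256244 windows of 10 kb tested across the genome, and above both in 0, against 9.4%. The knockout mean was lower in 8 of the 10 (63.8% of all windows). At the common limit it was lower in 7 of 10 (36.6%), and each knockout was below each control in 5 of 10 (7.64%), namely windows 3, 4, 5, 6 and 9. Window 9 counted narrowly, with 32.12% in knockout replicate 2 and 32.29% in control replicate 1. In windows 3, 4 and 6 peaks of knockout replicate 2 had a −log10 p of 1.379, 1.484 and 1.475, below the limit of 1.486. Neighbouring windows can share a peak and are not independent. The test had no power for single windows of this size. Limma called 0 windows of the genome (0%) at an adjusted p under 0.05, with 9773 (3.81%) at an unadjusted p under 0.05. None of the 30 globin windows was among the latter.

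**Figure D2:**
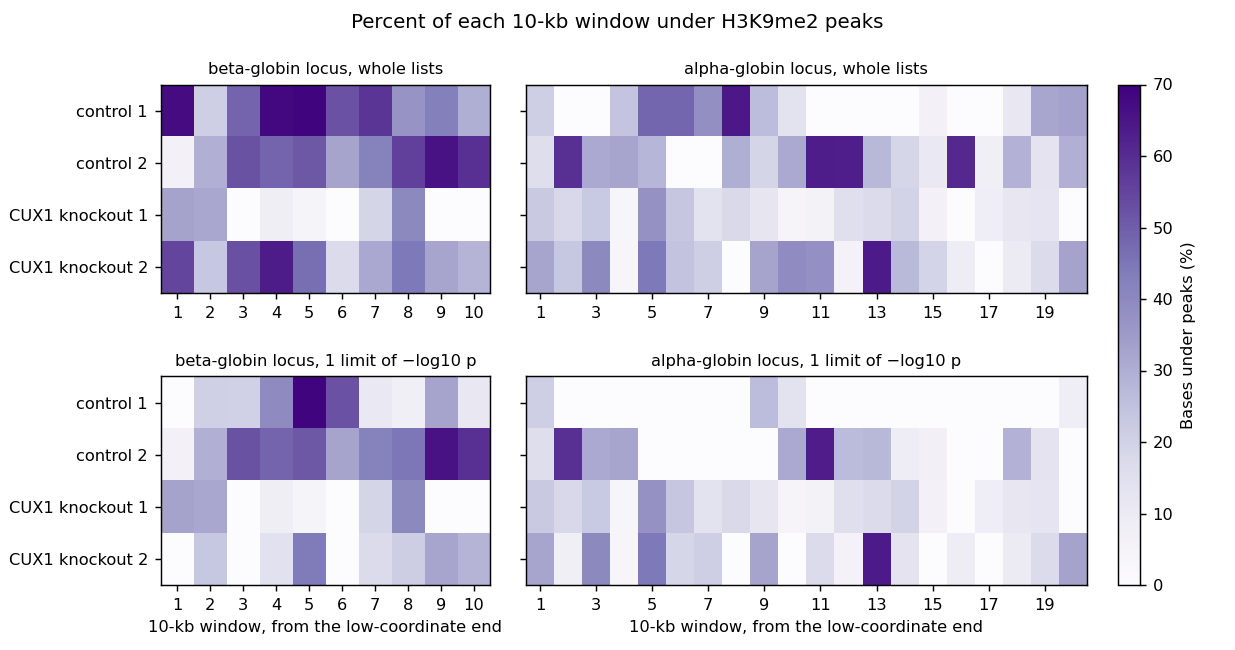
Percent of bases under H3K9me2 peaks (colour, 0 to 70%) in each 10-kb window (x axis) of the beta-globin (left) and alpha-globin (right) locus in each library (rows), from the whole lists (top) and with 1 common limit of −log10 p (bottom). Window 8 of the beta-globin locus stays at 40.01% in knockout replicate 1 while windows 3, 6, 9 and 10 are empty there, and in the alpha-globin locus control replicate 1 is empty over windows 11 to 14.

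Some stretches of the beta-globin locus lay under peaks in every library. All 4 libraries covered 2906 bp of it, 2.91% against 1.11% of the 23 chromosomes, without adjustment for the higher density of the locus in both controls and knockout replicate 2. These bases formed 5 stretches that fell in the windows of HBB, HBG1, HBG2, HBE1 and the control region. The longest, 846 bp from 5245909 to 5246754, lay in the HBB window. The 4 peaks over it began within 222 bp of each other, at 5245687 and 5245692 in the controls and at 5245790 and 5245909 in the knockouts. Their −log10 p, by the authors' lists, was 1.88 and 1.54 in the control pair, against 1.61 and 2.40 in the knockout pair.

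A second recurrent stretch lay from 5296834 to 5297185 in window 7, which HBE1 shares with the control region. The peak over it was the strongest of the locus by −log10 p in both knockouts, at 2.66 in replicate 1 and 2.67 in replicate 2, against 1.33 and 1.80 in the controls. Its fold over the caller's local background was 2.47 and 2.15 in the knockouts and 1.68 and 1.84 in the controls. These values belong to peaks of unlike width, 352 and 1699 bp in the knockouts and 4231 and 626 bp in the controls. The strongest peaks of the controls lay elsewhere, in window 2 in replicate 1 (5240265 to 5241255, −log10 p 2.31) and in window 3 in replicate 2 (5258531 to 5259299, 2.05). The widest peaks were 10352 bp in control replicate 1, over the low end, and 10699 bp in control replicate 2, over windows 8 and 9. In the knockouts the widest were 4703 bp, over windows 7 and 8, and 5477 bp, over the low end.

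Sequence covered in both controls and in neither knockout made up 10.7% of the beta-globin locus, against 3.799% of the 23 chromosomes, in 10 stretches. The longest were 2223 bp from 5309912 to 5312134 in the control region, 2037 bp from 5274157 to 5276193 in window 5 and 1836 bp from 5261731 to 5263566 in window 4. The reverse class, both knockouts and neither control, made up 0.128% of the locus, a single stretch of 128 bp in window 8, against 1.45% of the chromosomes. Neither contrast with the chromosomes is independent of the coverage of the locus. Relative to the library that coverage was 2.16 and 1.98 times in the control pair, against 0.972 and 2.04 times in the knockout pair.

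The peak names carry serial numbers, some of which the lists lack. They were taken to count every peak the caller made, a reading that no source used here states. From the first to the last listed peak of the beta-globin locus these numbers ran over 19 and 18 in the control pair, against 17 and 21 in the knockout pair, while the listed peaks numbered 18, 16, 8 and 18. By serial number the groups overlapped and differed by 0.5 between the means (exact permutation p = 1). In knockout replicate 1 the longest stretch between listed peaks, 16776 bp from 5276621 to 5293396 over windows 5 to 7, held 3 unlisted numbers, and the 31481 bp from its last peak in the locus to the next listed peak, which ends past the locus, held 5. Whether unlisted peaks lie in the windows that read 0% was not tested.

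**Figure D3:**
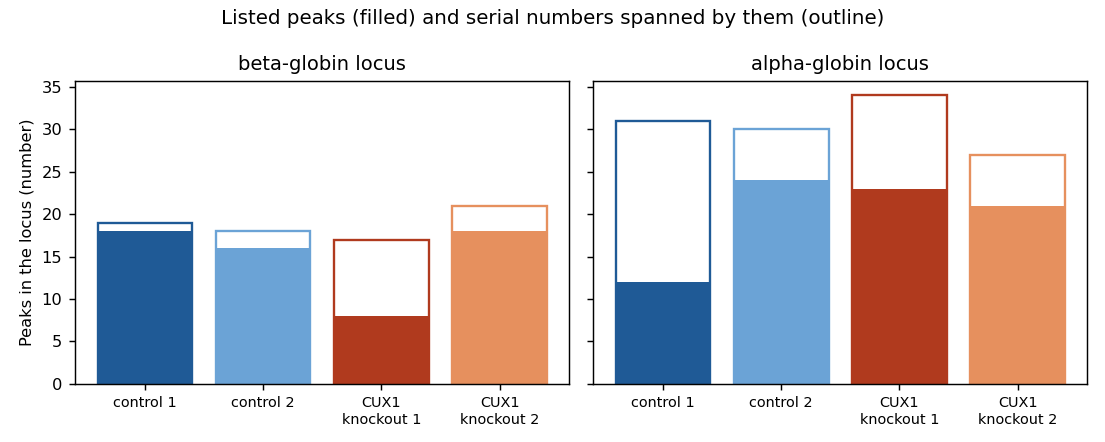
Number of listed peaks (filled bars) and of serial numbers from the first to the last listed peak (outlines) in the beta-globin (left) and alpha-globin (right) locus, for each library. In the beta-globin locus 17 to 21 numbers are spanned in every library but only 8 are listed in knockout replicate 1, and in the alpha-globin locus 27 to 34 are spanned but only 12 are listed in control replicate 1.

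The alpha-globin locus, gene-rich and close to the end of the chromosome, was covered more sparsely and varied as much within groups as between them. Peaks covered 18.3% and 28.4% of it in the control pair, against 13.6% and 24.1% in the knockout pair. The groups overlapped, with means of 23.4% ± 7.19 and 18.8% ± 7.43 (SD, n = 2 each) and a difference of -4.53 points (SE 6.31, limma over 13862 windows of 200 kb, adjusted p = 0.686; the fit called 1.88% of windows lower and 0.0433% higher). The median window of that length differed by -6.06 points, the knockout mean was lower in 84.3% of them, and both knockouts were below each control in 49.2% and above each in 3.61%. An unadjusted p under 0.05 was found for 17.4%. Without control replicate 2 or without knockout replicate 1 the sign turned, to 0.553 and 0.720 points. With the common limit of −log10 p control replicate 1 kept 3.47%, and the other libraries had 17.2%, 13.6% and 18.4%, a difference of 5.65 points in the other direction, with overlapping groups. At that limit 20.5% of the 200-kb windows had a lower knockout mean and 5.39% had both knockouts below both controls.

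In the whole lists the alpha-globin locus was denser than its flank in every library. The flank from 300001 to 1000000 was covered to 12.5% and 16.3% in the control pair, against 7.97% and 18.5% in the knockout pair. The locus exceeded this flank by 5.76 and 12.1 points in the control pair, against 5.60 and 5.57 points in the knockout pair (exact permutation p = 0.333 for the groups, the smallest possible). Control replicate 1 was close to the knockouts, and without control replicate 2 the difference between the groups was -0.174 points. With the common limit control replicate 1 lay below its flank (-1.77 points), control replicate 2 above it by 8.74 and the knockouts by 5.60 and 5.58. Between the telomere and the locus the first listed peak of any library began at 90590, and the 9411 bp from there were covered to 44.98% and 18.9% in the control pair, against 14.5% and 14.02% in the knockout pair.

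**Figure D4:**
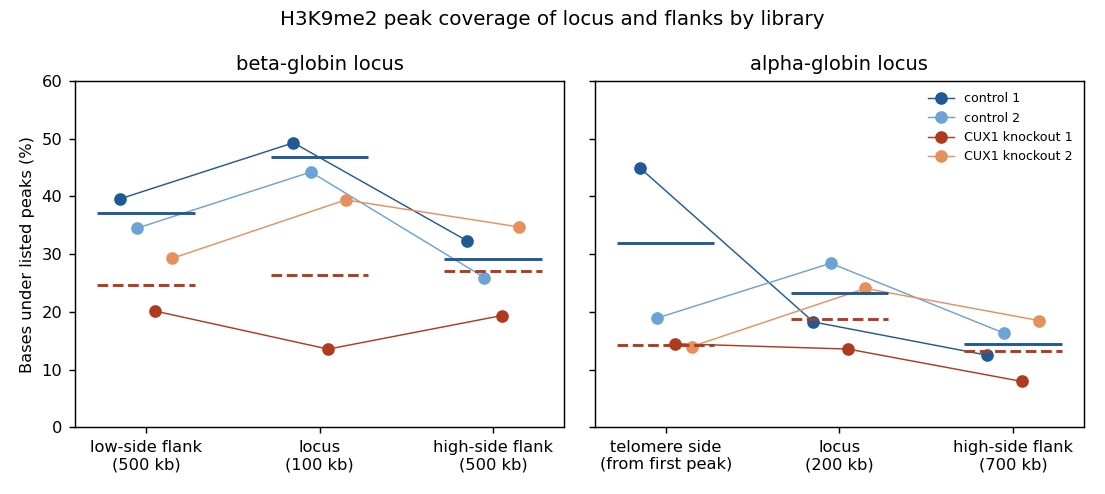
Percent of bases under listed peaks (y axis) in each locus and its flanks for each library (points, joined within a library), with the mean of the 2 controls (solid bars) and of the 2 knockouts (dashed bars). In the beta-globin panel the locus stands above both flanks in both controls and in knockout replicate 2 and below both in knockout replicate 1, and in the alpha-globin panel it stands above the high-side flank in all 4 libraries.

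**Figure D5:**
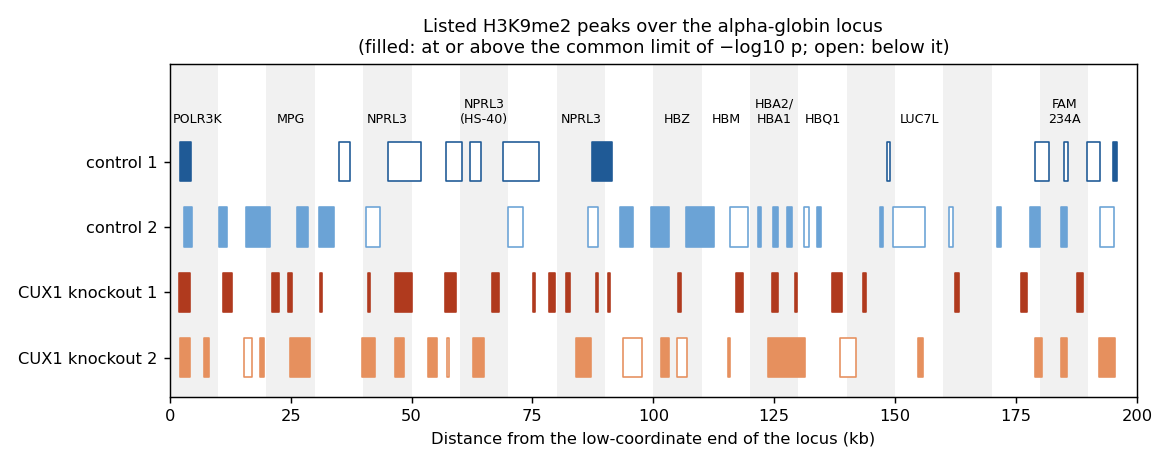
Listed H3K9me2 peaks (bars) over the alpha-globin locus in each of the 4 libraries, by distance in kb from the low-coordinate end; open bars fall below the common limit of −log10 p. Control replicate 1 has 12 peaks, 3 of them at or above the limit, and none over the windows of HBZ, HBM, HBA2, HBA1 and HBQ1.

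Over NPRL3, a gene of amino acid signalling whose introns hold the alpha-globin enhancers, windows 4 to 9 were covered to 41.5% and 18.2% in the control pair, against 18.1% and 20.9% in the knockout pair. Window 7, with HS-40, had 38.0% and 0% in the control pair, against 13.6% and 20.9% in the knockout pair. In windows 4 and 8 each knockout was below each control. Window 8 had 64.5% and 30.0% in the control pair, against 17.7% and 0% in the knockout pair, at -38.4 points the lowest difference of the 20 windows (limma adjusted p = 0.834, unadjusted p = 0.0741). Window 4, shared with the DNA repair gene MPG, had 23.8% and 32.0% against 3.66% and 3.41%. With the common limit the difference between the means over NPRL3 turned sign, with 4.33% and 5.34% in the control pair, against 18.1% and 20.0% in the knockout pair. At that limit the knockout mean was lower in only 36.6% of 10-kb and 20.5% of 200-kb windows of the genome. The share of windows with both knockouts above both controls at that limit was not computed.

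In the windows of the alpha-like genes coverage varied widely within both groups. The window of HBZ, the embryonic alpha-like gene, was covered to 0% and 63.2% in the control pair, against 5.68% and 38.0% in the knockout pair. The window of HBA2 and HBA1, which encode the alpha-globin of fetus and adult, had 0% and 27.3% in the control pair, against 16.8% and 63.8% in the knockout pair. At 26.6 points this was the highest difference of the 20 windows, with overlapping groups (limma adjusted p = 0.834). The window of HBM, a further alpha-like gene, had 0% and 62.9% against 14.8% and 5.30%. The window of HBQ1 had 0% and 18.8% against 19.6% and 26.9%, both knockouts above both controls.

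All 4 of these windows were empty in control replicate 1, whose longest stretch without a listed peak ran 56980 bp from 191375 to 248354. That stretch held 9 unlisted serial numbers. Over the whole alpha-globin locus the listed peaks numbered 12 and 24 in the control pair, against 23 and 21 in the knockout pair, while the serial numbers spanned 31 and 30 in the control pair, against 34 and 27 in the knockout pair. The group means of the serial numbers were 30.5 and 30.5.

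Of the 20 windows, both knockouts lay below both controls in 2 (background 23.6%) and above both in 2, windows 1 and 14 (background 9.4%). The knockout mean was lower in 13 of the 20 windows (background 63.8%), and with the common limit in 7 of the 20 (background 36.6%). The 3 lowest differences were in windows 8, 16 and 4, and the 3 highest in windows 13, 3 and 14. Window 16, in the splicing factor gene LUC7L, had 0% and 60.9% in the control pair, against 0% and 9.02% in the knockout pair, so its difference of -26.0 points rested on control replicate 2. Window 3, with parts of RHBDF1 and MPG, had 0% and 31.2% against 22.6% and 39.95%.

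All 4 libraries covered a single stretch of the alpha-globin locus, 1155 bp from 103015 to 104169 in window 1, where the RNA polymerase III subunit gene POLR3K and SNRNP25 lie. That was 0.578% of the locus, against 1.11% of the chromosomes. The 4 peaks over it ended within 426 bp of each other. The strongest peak of the locus was in window 19, from 284416 to 285657 in control replicate 2 (−log10 p 3.75), near FAM234A. In knockout replicate 2 the strongest peak was at 279031 to 280365 (2.68) and its widest, 7688 bp from 223623 to 231310, lay over the window of HBA2 and HBA1.

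The excess of the beta-globin over the alpha-globin locus was lower in both knockouts than in both controls, by little in replicate 2. Coverage of the beta-globin locus exceeded that of the alpha-globin locus by 31.0 and 15.8 points in the controls, by -0.0115 points in knockout replicate 1 and by 15.3 points in knockout replicate 2 (exact permutation p = 0.333, the smallest possible). At the common limit of −log10 p the excess was 22.8 and 26.0 points in the control pair, against -0.0115 and -0.38 in the knockout pair. How often other pairs of windows show this order, with the whole lists or at this limit, was not computed. With 1 limit of −log10 q the groups overlapped (16.1 and 22.02 points, against 5.04 and 16.8), as they did with gaps of up to 2000 bp filled (36.6 and 20.8, against 0.686 and 22.6). With a −log10 p of at least 2 the difference between the groups turned to 1.23 points.

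The overlap of libraries from 1 group lay within the range of the mixed pairs at both loci. At the beta-globin locus the Jaccard index (shared bases over the bases of the union) was 0.304 between controls, 0.176 between knockouts and 0.135 to 0.380 for the 4 mixed pairs. At the alpha-globin locus it was 0.0901 and 0.115 within the groups and 0.0703 to 0.238 for the mixed pairs, the highest being control replicate 2 with knockout replicate 2. Of the listed peaks, between 87.5% and 100% at the beta-globin locus and between 65.2% and 90.5% at the alpha-globin locus overlapped a peak of at least 1 other library by 1 bp or more, against 76.9% to 83.7% of all listed peaks by library. With an overlap of at least 50% of both peaks the shares were 37.5% to 44.4% and 17.4% to 38.1%, against 26.6% to 35.9% of all peaks. None of these shares was adjusted for how densely the loci were covered.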

How the data were processed

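Peak lists of 4 CUT&RUN libraries for H3K9me2 were analysed. The submitters' processing notes name hg19 as the build, and deepTools 3.5.1, MACS2 2.1.0, SAMtools 1.16.1 and BWA 0.7.17 as tools, with settings not given in the sources used here. Broad peaks were deposited by the authors, 1 list a library. Each deposited peak has a score, a fold (a ratio to local background), and a p and a q as −log10, which served here only to describe or filter peaks. Sample titles gave the groups and the replicate numbers.

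Computed here were the percent of bases under peaks, in windows of 10 kb and in tilings of 100 and 200 kb placed so that each locus was 1 window, and the difference from the flanks. Windows with a mean of at least 1% were tested with limma 3.58.1 in R 4.3.3 (eBayes with a trend, two-sided, Benjamini-Hochberg threshold 0.05), and single values by a two-sided exact permutation test. The SE, interval and p by limma thus rest mostly on the spread over all windows by mean coverage, and little on the values of 1 window. Chromosome lengths ran to the last listed peak. Simulated data with 2 libraries a group served to test each fit: the 10-kb fit made no calls and the 100-kb fit found large changes but few moderate ones. The 200-kb fit found 31% of changes of 20 points and 100% of changes of 40 points, with 6 false calls.

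Members, gene lists and windows were chosen with earlier results of these data known. Windows named with values hold a member gene, the control region or HS-40, or have 1 of the 3 largest differences each way. Beta window 10 and alpha window 12 (HBM) meet none of these and were named after their values were seen. Stretches, serial numbers, the difference from the flanks at a −log10 p of at least 2, coverage relative to the library and left-out libraries at the common limit were added after the data were seen. Other genes of globin control were not analysed here. Peak positions are hg19, and promoter sequence is from RefSeq, GRCh38.p14.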

Additional observations from a re-analysis of the deposited data

How the results depend on the processing

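For the beta-globin locus the difference of -20.3 points kept its sign in most settings, at -2.99 with 1 limit of −log10 q, -11.7 after quantile normalization, -18.2 at equal covered length and -21.1 with gaps filled, except with a −log10 p of at least 2, where it was 2.07 points. Adjusted p ranged from 0.0174 to 0.979 over the limma settings. Leaving out 1 library gave -33.2 to -7.36 points with the whole lists, and -27.4 to -10.5 at the common limit of −log10 p. By serial number it was 0.5 peaks. Its difference from the flanks was -23.5 to -6.26 in 9 of 10 alternatives and turned to 1.504 with a −log10 p of at least 2. The alpha-globin difference turned to 5.65 with 1 limit of −log10 p, 5.18 with 1 limit of −log10 q, 0.843 with a −log10 p of at least 2, 4.10 at equal covered length and 0.941 after quantile normalization. Relative to the library it was 0.0751, and by serial number 0. Leaving out 1 library gave -9.78 to 0.720, and -1.21 to 12.5 at the common limit (8.05 without knockout replicate 1, 3.25 without knockout replicate 2). Its difference from the flank turned to 2.104, 3.67 and 1.83 with 1 limit of −log10 p, 1 of −log10 q and equal covered length, and to 0.0201 with a −log10 p of at least 2, and lay between -6.54 and -0.174 with 1 library left out. The cause was not tested. The mean share of peaks found in another library was 87.4% by 1 bp and 35.3% with an overlap of at least 50% of both peaks. Limma called 0 windows of 10 kb in each of 10 alternatives, among them windows of 20 kb.

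With the replicate number as a block the limma differences were the same, with adjusted p of 0.335 (beta) and 0.624 (alpha), and 0 windows of 10 kb passed. Same-numbered libraries deviated together only weakly (correlation 0.0571 over 100-kb and 0.0856 over 200-kb windows), and with 2 pairs this does not show whether they share a batch. Depth is unknown, and lists of 1 length each hold no measure of total H3K9me2.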
